A study of Mus musculus with 4 samples.

Results

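The genes described here are 40 core cell cycle genes of the mouse: 20 that act in the G1-to-S transition and DNA replication, called S-phase members, and 20 that act in mitosis, called mitotic members. They were chosen by name from knowledge of the cell cycle, with earlier results of these data known. Their probes were found by gene name on the array, with Gins2 listed under its older RIKEN name 4833427B12Rik and Cdk1 under Cdc2a. All 40 were measured, out of 19091 genes in all, by 64 of the 41174 probes of the array, of which 62 passed the filter on dim probes. The tissue was the atrioventricular canal (AVC), the segment between the embryonic atria and ventricles where the endocardial cushions form, taken from mouse hearts at e10.5. One group was wild type and the other carried a Tbx3 mutation that the series title calls hypomorphic, which means that gene function is reduced and not abolished. The labels give a mixed background of Sv129 and C57Bl6 in equal shares for both groups, and no further allele, Cre or transgene. Each sample was a pool of tissue from 5 hearts. There were 4 arrays, and on each a control pool in Cy3 was set against a mutant pool in Cy5. Ratios were taken within arrays, which gives n = 4.

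A dividing cell licenses its replication origins in G1, when Cdc6 and Cdt1 load the MCM helicase onto DNA. D-type and E-type cyclins with their kinases then inactivate the retinoblastoma proteins, which frees E2F factors to raise transcription of replication genes. Genes of mitosis are transcribed later, and their promoters are known to be held off in resting cells by a complex that binds the cell cycle homology region (CHR), often beside CCAAT boxes bound by NF-Y. In the embryonic heart, chamber myocardium divides fast, while myocardium of the AVC is known as a slowly dividing tissue. Tbx3, a T-box repressor of the AVC and the later conduction system, is also known for roles in cell cycle control.

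The split of the members into S-phase and mitotic genes was partly visible in their promoters. RefSeq promoters of build GRCm38.p6, from 250 bases before to 50 bases after the start, were at hand for 32 members, 15 S-phase and 17 mitotic, out of 27025 genes. An E2F-type match was 1 of 3 short motifs on either strand. The first of them was TTCCCGC. Another was TTGGCGC. The last was TTGGCGG. A CHR-type match was TTTGAA and the third motif was CCAAT, both also on either strand. Of the S-phase members, 8 of 15 (53.3%) held an E2F-type match, against 3 of 17 mitotic members (17.6%) and 10.3% of all genes. Of the mitotic members, 12 of 17 (70.6%) held a CHR-type match, against 1 of 15 S-phase members (6.67%), Mcm2, and 20.2% of all genes. All 12 of those mitotic promoters held CCAAT too, a combination found in 8.97% of all genes. CCAAT alone was in 9 of 15 S-phase (60.0%) and 15 of 17 mitotic promoters (88.2%), against 41.1% of all genes. The letters overlap, since the last E2F-type motifs end in CCAA when read on the other strand. With E2F-type matches that overlap a CCAAT left out, the shares were 8 of 15, 2 of 17 and 9.34%. The S-phase members without an E2F-type match were Mcm2, Pcna, Rrm2, Tyms, Ccnd3, Ccne1 and E2f1. A match is a run of letters and was not tested for binding. Likewise, the absence of these exact letters does not show that a promoter lacks a site.

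The 250 bases before the start are shown for 4 members: Mcm5 and Mcm6, subunits of the replicative helicase, Top2a, the topoisomerase that untangles sister DNA, and Cdk1, the mitotic kinase. Among members with a single promoter in the table they were those with most E2F-type (S-phase) or CHR-type (mitotic) matches in these 250 bases, with ties, such as that of Cdk1 and Mki67, settled by CCAAT matches and then by name. Mcm3 and Mcm7 held more E2F-type matches over the whole windows, 3 that lie after the start for Mcm3 and 4 over 2 promoters for Mcm7. Capitals mark E2F-type, CHR-type and CCAAT matches on either strand.
Mcm5 (chr8:75109259-75109508, plus strand): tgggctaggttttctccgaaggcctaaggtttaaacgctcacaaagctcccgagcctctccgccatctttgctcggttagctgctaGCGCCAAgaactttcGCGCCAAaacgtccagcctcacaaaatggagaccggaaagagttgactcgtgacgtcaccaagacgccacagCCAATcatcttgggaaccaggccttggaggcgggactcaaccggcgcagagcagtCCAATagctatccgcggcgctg
Mcm6 (chr1:128359706-128359955, minus strand): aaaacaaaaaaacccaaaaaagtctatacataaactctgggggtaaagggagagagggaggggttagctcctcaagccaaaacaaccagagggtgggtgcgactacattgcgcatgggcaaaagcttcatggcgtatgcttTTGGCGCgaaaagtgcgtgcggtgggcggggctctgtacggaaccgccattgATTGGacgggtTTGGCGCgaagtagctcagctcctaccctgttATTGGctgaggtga
Top2a (chr11:99024190-99024439, minus strand): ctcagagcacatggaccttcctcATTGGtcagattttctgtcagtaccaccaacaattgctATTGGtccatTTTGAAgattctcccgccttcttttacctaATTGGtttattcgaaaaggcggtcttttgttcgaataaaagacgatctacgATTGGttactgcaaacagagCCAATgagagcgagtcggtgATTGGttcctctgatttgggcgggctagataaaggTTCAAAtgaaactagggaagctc
Cdk1 (chr10:69352913-69353162, minus strand): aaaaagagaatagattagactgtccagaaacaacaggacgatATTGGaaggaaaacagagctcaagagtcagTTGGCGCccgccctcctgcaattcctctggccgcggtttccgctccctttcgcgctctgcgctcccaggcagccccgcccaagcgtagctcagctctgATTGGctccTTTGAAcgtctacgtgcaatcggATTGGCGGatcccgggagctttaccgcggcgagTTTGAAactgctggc
Mcm5 and Mcm6 each held 2 E2F-type and 2 CCAAT matches here and no CHR-type match. Top2a held 2 CHR-type matches and 6 of CCAAT and none of E2F type, and Cdk1 held 2 CHR-type, 3 CCAAT and 2 E2F-type matches, 1 of the latter overlapping a CCAAT.

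**Figure D1:**
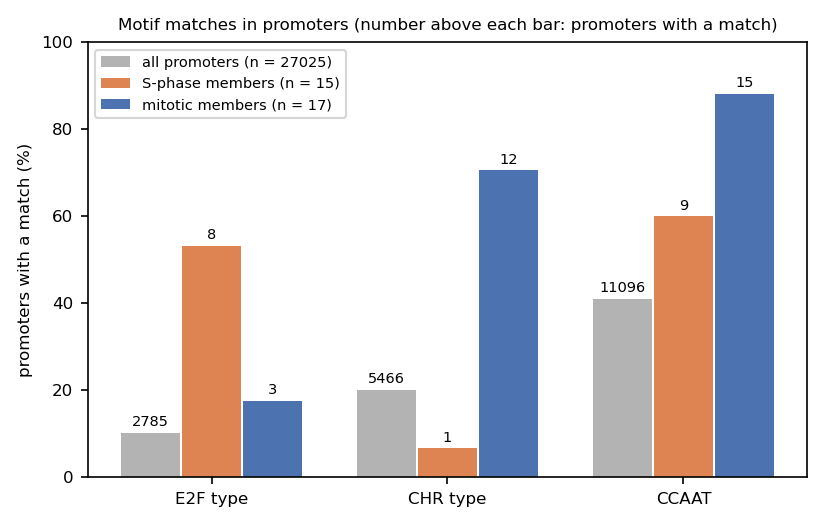
Share of promoters (percent, vertical axis) with at least 1 E2F-type, CHR-type or CCAAT match for all genes (grey), S-phase members (orange) and mitotic members (blue), with the number of genes above each bar. E2F-type matches were in 53.3% of S-phase members and CHR-type matches in 70.6% of mitotic members, against 10.3% and 20.2% of all genes.

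The labels were checked on Tbx3, whose log2 ratio of mutant over control was -1.35 ± 0.10 (SD, n = 4; limma adjusted p = 0.0454) and below -1 on every array. Myocardial, cushion, endocardial and epicardial markers were all well above background in every pool. They did not lie at the same ratio: the means of 14 of 16 myocardial markers were above 0 (median 0.51, and 0.34 without array 2) and those of 16 of 18 cushion markers below 0 (median -0.38, and -0.21 without array 2), with none past the threshold on 4 arrays. Their part in the values of the members was not tested. Array medians before normalization were 117.9 to 133.5 in the control channel and 175.1 to 232.5 in the mutant channel. Array 2 stood apart. Its control pool was above the other control pools for 12 of 12 leukocyte markers, by a median of 1.69, and for 9 of the 11 uterine and decidual markers past the filter, by 1.73. The marker lists were chosen with earlier results of these data known, so this describes array 2 and is no independent test of it. Summed over the list, leukocyte markers were at 14.70 to 16.05 (log2) in control and 14.71 to 16.39 in mutant pools, and cushion markers at 19.57 in that control pool against 17.66 to 17.79 in the other controls. No leukocyte marker was at background in any pool, and 2 to 7 of 16 uterine and decidual markers were not well above background in a control pool. Of the latter, summed at 16.80 to 16.97 in control and 16.88 to 17.17 in mutant pools, Oxtr was well above background in no pool, Prl3c1 was so in no control pool, and Pgr, the progesterone receptor gene, was so in 1 control pool alone. Values without array 2 are therefore given beside the counts and beside several members that it moved. Since all mutant pools were labelled with Cy5, dye and genotype cannot be told apart. In a bulk sample, fewer cells of a type and less RNA per cell cannot be told apart.

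No cell cycle member passed the threshold between mutant and control AVC, an adjusted p under 0.05 in limma over all genes. That threshold was passed by 1 gene of 19091 (0.00524%), Tbx3. At an unadjusted p under 0.05, 6 members were higher in the mutant (E2f1, Pcna, Ccnd2, Kif11, Ccne2 and Gins2) against a background of 7.10%, and 1 was lower (Rrm1) against 7.45%. The mean log2 ratio was above 0 for 25 members and below 0 for 15, with a median of 0.047, against 50.3% of all genes above 0. Without array 2 the split was 21 to 19, with a median of 0.0100, against 52.4% of all genes above 0. Higher values on every array were found for 11 members, against a background of 12.3%, and lower values on every array for Rrm1 alone, against 12.6%. With array 2 left out, 13 members were higher on every remaining array, against 23.6% of all genes, and 8 lower, against 22.9%. In the deposited processed signals, 5 members were higher on every array, against 11.8% of all genes, and 3 lower, against 12.3%. Without array 2, 193 genes passed (1.01%), and 1 of them was a member, Ccne2. With arrays weighted by their fit, 8.24% of all genes passed, and 3 members among them, E2f1, Pcna and Ccne2, all higher.

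By their brightest probes after loess, the members were close to equal in both genotypes, and the arrays measured them well. All 40 were well above background in both channels on all 4 arrays, and none was saturated. Their median log2 intensity A, the mean of both channels, was 14 against 9.83 over all genes. The largest mean was that of Ccne2 at 0.41, and 37 of 40 lay within 0.25 of 0, against 85.6% of all genes. The 95% interval of the mean, from limma, lay inside -0.5 to 0.5 for 35 of 40 members and inside -1 to 1 for all 40, against 80.5% and 96.0% of all genes. A 2-fold difference in either direction therefore lay outside the interval of the brightest probe of every member, given how the arrays were normalized. This does not extend to all other probes: a dim one of Nusap1 had a mean of 0.87 ± 0.37. Under median centring of each array in place of loess, all 40 members were positive and 36 passed the threshold, as did 40.7% of all genes. The median over all genes was then 0.23, and those of the S-phase and mitotic members were 0.56 and 0.52.

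**Figure D2:**
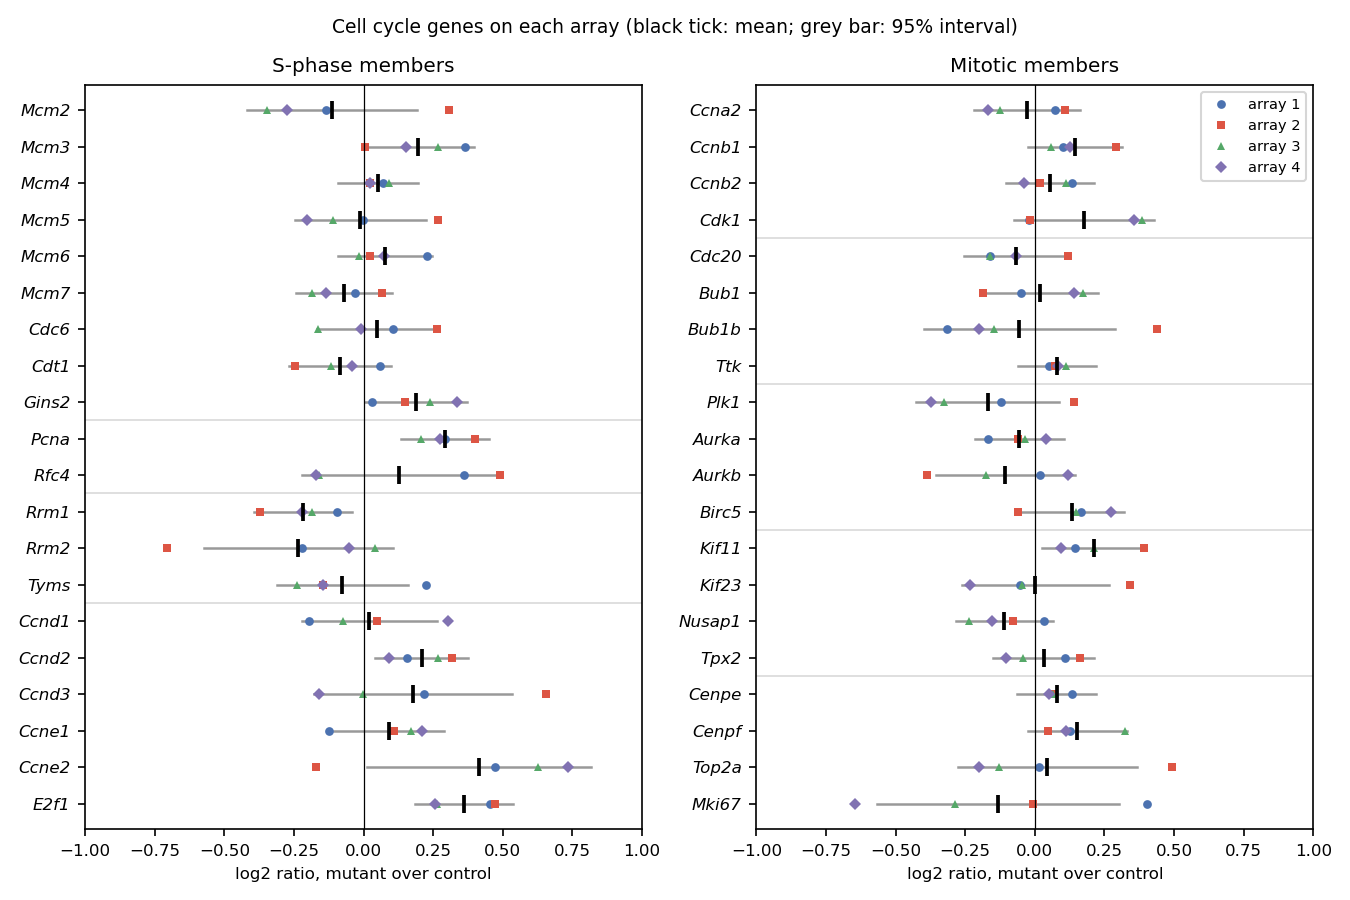
Log2 ratio of mutant over control (horizontal axis) of each of the 20 S-phase members (left) and 20 mitotic members (right), ordered by role, on arrays 1 to 4 (coloured symbols), with the mean (black tick) and limma's 95% interval (grey bar). Most means lie near 0, and array 2 (red squares) is often the most distant point, as for Ccne2, Rrm2, Ccnd3, Bub1b and Top2a.

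Among the 9 licensing and helicase genes, 5 means were above 0 and 4 below, with a median of 0.049, and none passed the test. The 6 subunits of the MCM2-7 ring, which act in equal numbers, lay between -0.11 and 0.20. Mcm3 had log2 ratios of 0.36, 0.0051, 0.27 and 0.15 on arrays 1 to 4, a mean of 0.20 ± 0.15 (adjusted p = 0.349). This brightest probe was above 0 on every array, but on array 2 only just. The second probe of Mcm3 had a mean of 0.18 ± 0.30 and was at -0.033 on array 4. Mcm2 gave -0.13, 0.31, -0.35 and -0.28, so it was lower in the mutant on 3 arrays and higher on array 2. Mcm5 (-0.0037, 0.27, -0.11 and -0.20) and Mcm7 (-0.031, 0.065, -0.19 and -0.13) shared that order of signs. Without array 2 the means of Mcm2, Mcm5 and Mcm7 were -0.25, -0.11 and -0.12, and none of them passed (adjusted p = 0.126, 0.416 and 0.351). Mcm4 varied least, between 0.023 and 0.090, and Mcm6 lay between -0.015 and 0.23. Cdc6, which loads the helicase, had a mean of 0.049 ± 0.18 (-0.022 without array 2), and Cdt1, its loading partner, -0.086 ± 0.13. Gins2, a subunit of the GINS complex that activates the helicase, was at 0.032, 0.15, 0.24 and 0.34, all above 0 (mean 0.19 ± 0.13, adjusted p = 0.332).

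Pcna, the sliding clamp that holds polymerases on DNA, was one of the most even differences among the members. Its log2 ratios were 0.29, 0.40, 0.20 and 0.27, with a mean of 0.29 ± 0.081 (1.22-fold, 95% interval 1.10 to 1.37; adjusted p = 0.169). The mean was 0.16 (adjusted p = 0.479) in the deposited processed signals and 0.99 (adjusted p = 0.00267) under median centring. The normalized log2 level was 15.47 to 15.58 in the control pools and 15.78 to 15.87 in the mutant pools. Rfc4, a subunit of the clamp loader, was at 0.36 and 0.49 on arrays 1 and 2 and at -0.16 and -0.17 on arrays 3 and 4. The mean of Rfc4 was 0.13, and 0.0088 without array 2. Its partners, taken from the wider replication list, did not share one sign. Rfc1, the large subunit, was lower on every array (mean -0.33 ± 0.079, adjusted p = 0.144), as was Rfc5 (-0.26 ± 0.076, adjusted p = 0.199). Rfc2 was also lower on every array (-0.18 ± 0.11, adjusted p = 0.329), while Rfc3 was higher on every array (0.26 ± 0.091, adjusted p = 0.204).

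The 3 genes of nucleotide supply had means below 0 after loess, and above 0 (0.24 to 0.53) under median centring, which moved all members up. Rrm1 and Rrm2 are the large and small subunits of ribonucleotide reductase, which makes deoxynucleotides, and Tyms is thymidylate synthase. Rrm1 was at -0.095, -0.37, -0.18 and -0.22, lower in the mutant on all 4 arrays (mean -0.22 ± 0.12, 0.860-fold, 95% interval 0.761 to 0.971; adjusted p = 0.271). Rrm2 was at -0.22, -0.70, 0.041 and -0.051, and its mean of -0.23 ± 0.33 came mostly from array 2. There the control pool had a log2 level of 14.33 while the other control pools lay between 13.46 and 13.52, and the mutant pools lay between 13.24 and 13.62. Without array 2 the mean of Rrm2 was -0.077. Tyms was at 0.22, -0.15, -0.24 and -0.15 (mean -0.076 ± 0.21).

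The 2 brightest of the 3 probes of Tyms overlap by 40 bases of the minus strand of chromosome 5 in build mm7, with 1 base different in the overlap, C17A counted from the 5′ end of the brighter probe and shown in capitals. Both are printed 5′ to 3′, with the brighter probe first.
Tyms, chr5:29093977-29094036: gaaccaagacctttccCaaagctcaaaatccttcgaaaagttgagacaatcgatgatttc
Tyms, chr5:29093997-29094890: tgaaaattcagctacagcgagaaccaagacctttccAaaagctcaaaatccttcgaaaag
Their log2 ratios differed by at most 0.041 on any array. The brighter probe ran from -0.24 to 0.22 across arrays, a wider range than the differences between these probes. The third probe, much dimmer with an A of 6.49, had a mean of 0.046 ± 0.12 and differed from the brightest by 0.46 on array 3.

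The 5 G1 cyclins and E2f1 all had means above 0 after loess. In single alternatives Ccnd2 (-0.054 in the deposited processed signals and in the authors' series table), Ccnd1 (-0.073 without array 4) and Ccnd3 (-0.0015 with array weights) were below 0. E2f1, the transcription factor that drives replication genes, had log2 ratios of 0.45, 0.47, 0.27 and 0.26 and the lowest p of all members (mean 0.36 ± 0.12, 1.28-fold, 95% interval 1.14 to 1.45; adjusted p = 0.150). Its level was 10.93 to 11.13 in control and 11.32 to 11.42 in mutant pools. Its second probe, dimmer and 262 bases away, was at -0.091, 0.25, -0.033 and -0.10, a mean of 0.0054 ± 0.16, so the probes of E2f1 disagreed. Ccnd2, a D-type cyclin, was above 0 on every array by its brightest probe (mean 0.21 ± 0.10, adjusted p = 0.272). Its second probe, nearly as bright, had a mean of 0.066 ± 0.13 and was at -0.078 on array 4. The dimmest of 3 probes of Ccnd2 was at 0.20 and 0.40 on arrays 1 and 2 and at -0.32 and -0.54 on arrays 3 and 4. Ccnd3 had log2 ratios of 0.22, 0.65, -0.0029 and -0.16, high on array 2, with a mean of 0.18 over all arrays and 0.018 without array 2. Ccnd1, the third D-type cyclin, was at 0.021 ± 0.21, and Ccne1, an E-type cyclin, at 0.091 ± 0.15.

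Ccne2, the other E-type cyclin, had the largest mean and one of the widest spreads. Its log2 ratios were 0.47, -0.17, 0.63 and 0.73 (mean 0.41 ± 0.40, 1.33-fold, 95% interval 1.01 to 1.76; adjusted p = 0.329). The control pools lay between 10.49 and 10.71. The mutant pools of arrays 1, 3 and 4 lay between 11.16 and 11.22, and that of array 2 at 10.36, below every control pool. Without array 2 the mean was 0.61 (n = 3) and the adjusted p 0.0496, which passes the threshold. The second probe, 116 bases along, followed the same order with 0.26, -0.32, 0.46 and 0.59. The brighter probe has this sequence, on the plus strand of build mm7, with no part in capitals because no site within it is compared.
Ccne2, chr4:11130171-11130230: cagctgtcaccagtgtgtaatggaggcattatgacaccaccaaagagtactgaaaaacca
It is shown because Ccne2 had the largest mean of the members. Ccne2 was also the one member that passed without array 2.

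**Figure D3:**
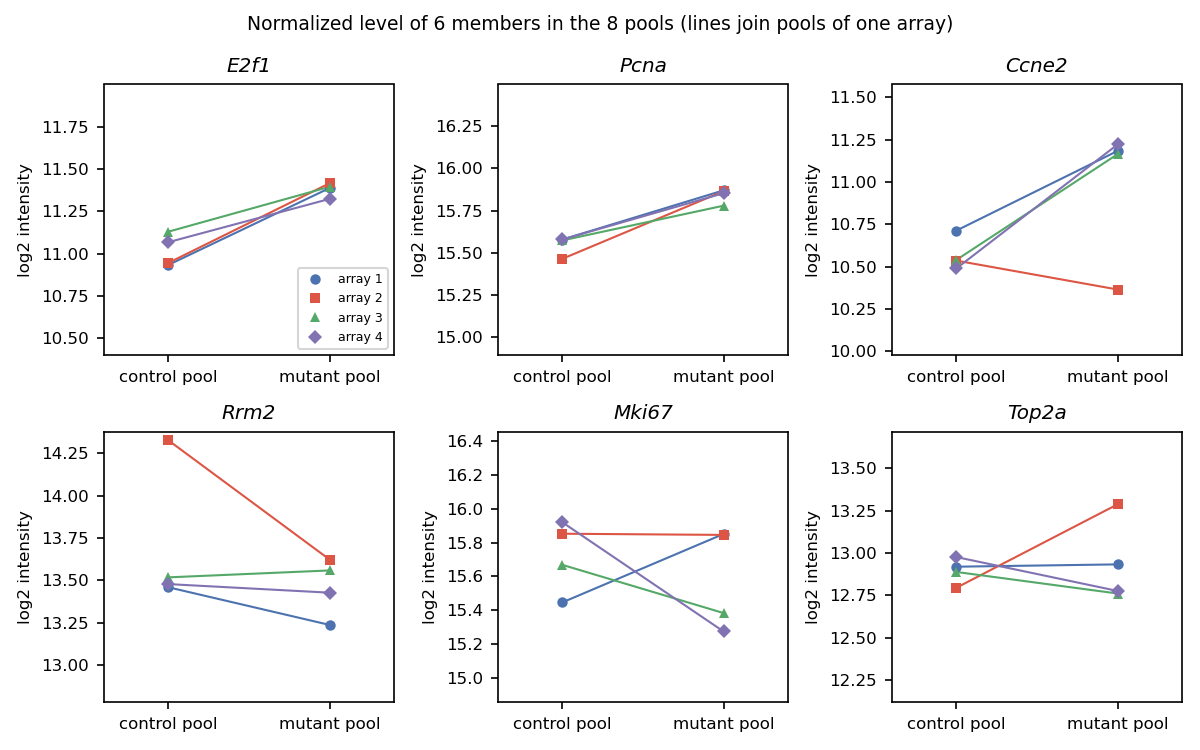
Normalized log2 intensity (vertical axis, 1.6 log2 units in each panel) of 6 members in the 4 control and 4 mutant pools, with a line joining the pools of one array. E2f1 and Pcna are higher in each mutant pool, Ccne2 in all but that of array 2, Rrm2 is high in the control pool of array 2 alone, and Mki67 and Top2a change order between arrays.

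The mitotic members had means between -0.17 (Plk1) and 0.21 (Kif11), and none passed the test. Of Cdk1, the kinase that starts mitosis, and its cyclins, 3 of 4 means were above 0. Ccnb1 was at 0.10, 0.29, 0.060 and 0.13, above 0 on every array (mean 0.14 ± 0.10, adjusted p = 0.399), and its 2 other probes had means of 0.26 and 0.21. On array 1 those other probes were at -0.024 and -0.061. Cdk1 itself was at -0.020 and -0.018 on arrays 1 and 2 and at 0.39 and 0.36 on arrays 3 and 4. Its partner Ccnb2 had a mean of 0.056 ± 0.080 and Ccna2, which acts from S phase to early mitosis, -0.028 ± 0.14.

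The spindle checkpoint holds chromosomes until each is attached. Ttk, its upstream kinase, was the least variable of all members, at 0.051, 0.071, 0.11 and 0.082 (mean 0.078 ± 0.025, adjusted p = 0.575), above 0 on every array yet close to it. Bub1b was at -0.32, 0.44, -0.15 and -0.20, high on array 2 alone, and its mean of -0.056 was -0.22 without that array. Its kinase relative Bub1 had a mean of 0.018 ± 0.17 (0.087 without array 2), with the opposite sign on arrays 2, 3 and 4. Cdc20, the target of the checkpoint, was at -0.16, 0.12, -0.16 and -0.068. Among the mitotic kinases and survivin, Plk1 was at -0.12, 0.14, -0.33 and -0.37, again higher on array 2 alone (mean -0.17 ± 0.23, adjusted p = 0.511), with -0.27 and an adjusted p of 0.126 without it. Aurka, the centrosomal Aurora kinase, had a mean of -0.055 ± 0.087. Aurkb, the chromosomal one, was at -0.11 ± 0.22 (-0.013 without array 2). Birc5, which encodes survivin, the partner of Aurkb in the chromosomal passenger complex, was at 0.13 ± 0.14.

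Kif11, the motor that pushes spindle poles apart, was at 0.15, 0.39, 0.21 and 0.094, above 0 on every array (mean 0.21 ± 0.13, 1.16-fold, adjusted p = 0.296). Its dimmer probes had means of 0.11 and 0.061, and neither was above 0 on every array. Kif23, a motor of the midzone needed for cytokinesis, had a mean of 0.0021 ± 0.24, with 0.34 on array 2 the other arrays below 0 and a mean of -0.11 without array 2. Tpx2, an activator of Aurora A on spindles, was at 0.032 ± 0.13 (-0.012 without array 2), and Nusap1, a spindle microtubule protein, at -0.11 ± 0.11. For the kinetochore proteins Cenpe (0.079 ± 0.036) and Cenpf (0.15 ± 0.12) the brightest probe was above 0 on every array. Their dimmer probes were not: those of Cenpe had means of -0.086 and 0.13, and that of Cenpf was at -0.14 on array 4. Top2a was at 0.014, 0.49, -0.13 and -0.20, with a mean of 0.045 ± 0.31, and of -0.10 without array 2.

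Mki67, which encodes the proliferation antigen Ki-67, had the widest spread of all members. Its log2 ratios were 0.40, -0.0071, -0.28 and -0.65 (mean -0.13 ± 0.44, adjusted p = 0.766), and a second probe gave 0.31, 0.38, -0.23 and -0.62. Both probes were high on array 1 and low on arrays 3 and 4, and they disagreed on array 2. Control levels ranged from 15.45 to 15.92 and mutant levels from 15.27 to 15.85, so the groups overlapped. Top2a, the other common proliferation marker of the set, had the sign of the second Mki67 probe on every array. It had the sign of the brighter Mki67 probe on arrays 1, 3 and 4. On array 2 Top2a was at 0.49, while that brighter probe was close to 0.

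The other probes of the same genes gave a second reading on the same arrays. For 16 members there were 22 other probes past the filter, and 17 of these had the same sign as the brightest. The means differed by a median of 0.099, and 19 of 22 differed by less than 0.2. The 3 exceptions were the second E2f1 probe, the dimmest Ccnd2 probe and a probe of Nusap1. The dim Nusap1 probe, with A of 7.84 against 12.88 for the brightest and 1759 bases away, was at 0.74, 0.44, 0.99 and 1.32 (mean 0.87 ± 0.37), while the brightest was at 0.033, -0.079, -0.24 and -0.15. Whether these probes read different transcripts was not tested.

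**Figure D4:**
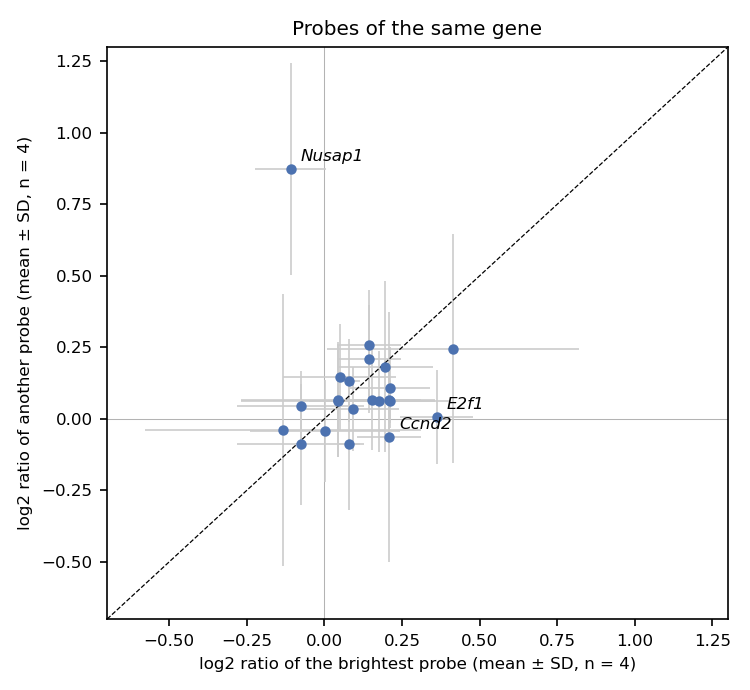
Mean log2 ratio over 4 arrays of 22 other probes (vertical axis) against the brightest probe of the same member (horizontal axis), with SD bars and a dashed line of equality. Most points lie within 0.2 of the line, and the named probes of Nusap1, E2f1 and Ccnd2 lie further away.

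Between the phases the difference was small. The S-phase members had a median log2 ratio of 0.064, with 0.089, 0.087, -0.0091 and 0.0077 on arrays 1 to 4. The mitotic members had a median of 0.025, with 0.042, 0.068, -0.039 and 0.0012. All-gene medians lay between -0.015 and 0.0032. Both phases were thus higher on arrays 1 and 2 than on arrays 3 and 4. The S-phase median minus the mitotic median was 0.047, 0.019, 0.030 and 0.0064 on the 4 arrays, with an SD of 0.017, positive each time, and 0.040 for the medians of the means. Without array 4 the latter was -0.012, although each array alone gave a positive difference, so the sign of that value was not stable. Without array 2 the S-phase median was 0.015 and the mitotic median -0.013. Array 1 was also the array with the highest erythroid ratio, a median of 1.18 over 10 of 10 markers, all higher in the mutant pool, against -0.29 to 0.49 on the others. The summed erythroid level was 18.45 to 19.79 in control and 19.79 to 20.37 in mutant pools, no marker measured was at background, and its part in the medians was not tested.

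A set of 7 members was higher in the mutant on array 2 and lower on the other 3 arrays: Mcm2, Mcm5, Mcm7, Cdc20, Bub1b, Plk1 and Kif23. They made up 17.5% of the members, against 10.4% of all genes with this pattern, and this set was noticed after the values were seen. The reverse, lower on array 2 alone, held for 2 members (5.00%), Ccne2 and Birc5, against 11.3%. In the control pool of array 2, where leukocyte and uterine markers were high, 25 of 40 members were below the mean of the other control pools, with a median difference of -0.060 over all 40. Over all genes 59.3% were below, with a median difference of -0.039, so the share of members, 62.5%, was close to that of all genes. By phase, 15 of 20 S-phase members (median -0.086) and 10 of 20 mitotic members (median -0.017) were below. In the mutant pool of array 2, 21 of 40 members were above the mean of the other mutant pools. The median difference there was 0.027, against -0.056 over all genes. For the 7, the mutant and the control pool of array 2 differed from the mean of the others of their kind as follows. Mcm2 was at 0.36 and -0.20, Mcm5 at 0.11 and -0.27, and Mcm7 at 0.11 and -0.075. Cdc20 was at 0.25 and 0.0028, Bub1b at 0.62 and -0.037, Plk1 at 0.26 and -0.15, and Kif23 at 0.56 and 0.11. The part of the leukocyte and uterine markers in these values was not tested.

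The rest of the pathway was read from wider lists, also chosen with earlier results of these data known. None of their genes passed the threshold on 4 arrays. Without array 2 a single gene of these lists passed, Smc4, a condensin subunit among the other mitotic genes (0.56, adjusted p = 0.0477). Of 60 other replication genes, 32 means were above 0 and 28 below, with a median of 0.0088. Of 63 measured of 64 other mitotic genes, 32 were above 0 and 31 below, with a median of 0.0031, and without array 2 the split was 28 to 35, with a median of -0.023. Cit, a kinase of cytokinesis, was lower on every array (-0.46 ± 0.35, adjusted p = 0.263), as was Gtse1 (-0.29 ± 0.18, adjusted p = 0.2501), and Knl1, a kinetochore scaffold, was higher on every array (0.27 ± 0.25, adjusted p = 0.344).

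Of 26 genes of the RB, E2F and G1 kinase list, 11 means were above 0 and 15 below, with a median of -0.065 that was negative on each array. Mycn, a transcription factor that promotes growth of embryonic myocardium, was at 0.29, 0.53, 0.56 and 0.37 (mean 0.44 ± 0.13, adjusted p = 0.143). Cdk6, a partner of D-type cyclins, was lower on every array (-0.28 ± 0.25, adjusted p = 0.334), and so was Rbl2, which encodes the RB relative p130 (-0.25 ± 0.26, adjusted p = 0.380). Beside E2f1, the activator E2f3 had a mean of 0.25 ± 0.30 and E2f2 one of -0.094 ± 0.35. The histone list, 16 measured of 17, moved most between arrays, with medians of 0.33, 0.28, -0.32 and -0.079. H1f4 (0.39 ± 0.16) and H1f0 (0.38 ± 0.14), both linker histones, were higher on every array and H2ax (-0.43 ± 0.35) lower on every array, with adjusted p of 0.168, 0.154 and 0.280.

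**Figure D5:**
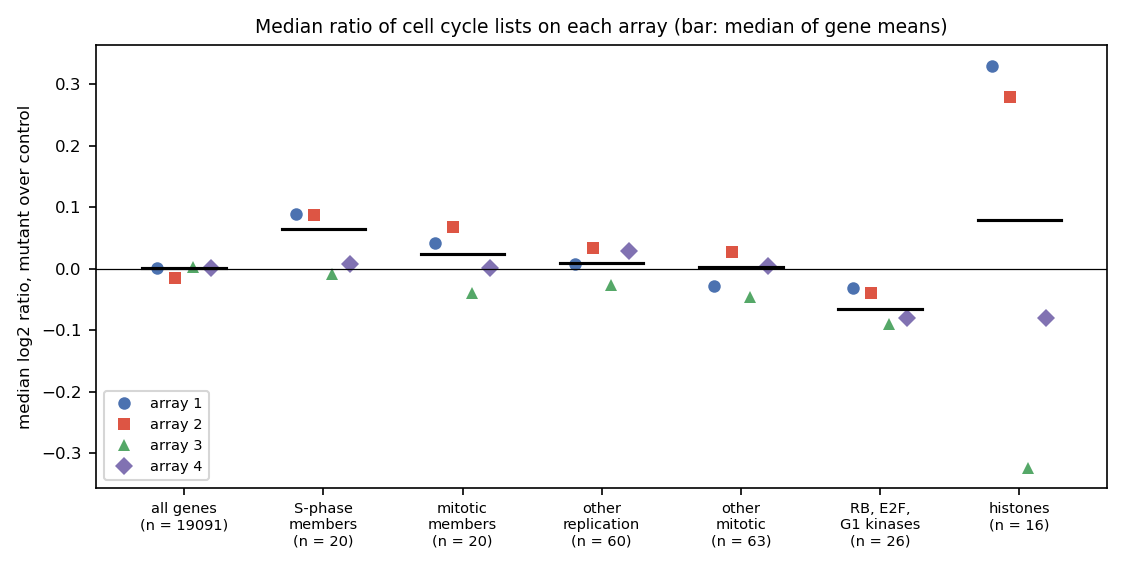
Median log2 ratio of mutant over control (vertical axis) on arrays 1 to 4 (symbols) for all genes, the S-phase and mitotic members and 4 wider lists, with the number of genes measured; black bars are medians of the gene means. The members' medians lie between -0.039 and 0.089, and the histone medians spread furthest of these lists, from -0.32 to 0.33.

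Ratios are given by promoter match as a description. The 8 S-phase members with an E2F-type match had a median log2 ratio of 0.018, with 4 above 0, and the 7 without one had 0.091, also with 4 above 0. The 12 mitotic members with a CHR-type match had a median of 0.023, with 7 above 0, and the 5 without one had 0.079, with 4 above 0. Whether ratios differ with the matches was not tested.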

How the data were processed

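The authors deposited scanner files made with Agilent Feature Extraction, version 9.5.1 in the submitters' processing notes; each deposited spot intensity is a mean pixel signal with its median local background. The deposited log10 ratio of the series table is red over green and matched the scanner files to 5e-07, and the deposited processed signals are an intensity that the software had background-subtracted and dye-normalized. RNA was amplified linearly before labelling, per the labels' protocols. Probe positions are on mm7, as in the files; exons and UTRs of that build were not looked up.

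Intensities were corrected with normexp (offset 50) and normalized by loess within arrays, control spots at weight 0 (limma 3.58.1, R 4.3.3). Spots with a non-uniformity flag were dropped, then replicate spots averaged. Probes well above background in 1 channel on at least 3 arrays were kept, 28794 of 41174; the brightest probe stood for a gene. Names came from a RefSeq table: 22951 probes by accession, 6659 by symbol, 3109 by synonym, and 8455 kept the file's name. Log2 ratios were tested against 0 (lmFit, eBayes; 2-sided), p-values were adjusted by Benjamini-Hochberg over all 19091 genes, and 0.05 was the threshold; every p given is from limma. Levels per pool are log2 intensities after loess and Aquantile and are compared only within a probe. The model was tested on simulated data. Ranges without an array refit the model to 3 arrays. The file headers give 1 slide and 1 scan for all arrays, which leaves no batch to test. The labels call the pools biological replicates; the number of arrays limits the precision.

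The members and lists were chosen with earlier results of these data known. Genes were named by rule: Tbx3, all members, and of each other list up to 3 genes with the largest absolute mean among those with 1 sign on all arrays; E2f2, E2f3 and Rfc2 were added as relatives of members, and Oxtr, Prl3c1, Pgr and Smc4 after their values were seen.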

Additional observations from a re-analysis of the deposited data

Results flagged for a closer look

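Of 120 groups of 4 values tested (ratios, control levels and mutant levels of 40 members), 7 held a pool far from the other 3 of its kind by Dixon's criterion. Chance alone marks about 1 in 20 independent groups. These groups share arrays and values, so whether 7 differs from chance was not tested. Of the 7, 4 were control levels, 3 were mutant levels and 0 were ratios. All values are normalized log2 intensities. On array 2, the Rrm2 level in the control pool was 14.33 against 13.46 to 13.52 in the other controls, and the Pcna level there was 15.47 against 15.57 to 15.58. In the mutant pool of that array, Ccne2 was at 10.36 against 11.16 to 11.22 in the other mutant pools, and Ccnd3 at 14.99 against 14.54 to 14.61. On array 1, the control pool was at 13.27 for Cdk1, against 13.01 to 13.05, and at 15.81 for Mcm6, against 15.94 to 15.95. On array 3, Nusap1 was at 12.62 in the mutant pool, against 12.88 to 12.91. Of the 7, 4 were on array 2, and their cause was not tested.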

How the results depend on the processing

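Each member was refitted under 13 alternatives. Of 520 values, 52 changed sign, and 13 members kept their sign throughout; 40 values passed the threshold, 36 of them under median centring. The number of genes called was 3 with the processed signals and with the authors' series table, 0 with an offset of 16 and with the mean of all probes, 7772 with median centring (7202 higher, 570 lower) and 1574 with array weights (876 higher, 698 lower), and ranged from 0 to 193 with 1 array left out. Array weights called Pcna (0.26, adjusted p = 0.0410), Ccne2 (0.60, adjusted p = 0.0289) and E2f1 (0.30, adjusted p = 0.0384), against 8.24% of all genes, and gave a mitotic median of -0.029. Median centring gave S-phase and mitotic medians of 0.56 and 0.52 and positive means for Mcm2 (0.42), Mcm5 (0.50), Mcm7 (0.54), Cdt1 (0.48), Rrm1 (0.36), Rrm2 (0.24), Tyms (0.53), Ccna2 (0.50), Cdc20 (0.54), Bub1b (0.35), Plk1 (0.38), Aurka (0.56), Aurkb (0.27), Nusap1 (0.31) and Mki67 (0.56). The processed signals and the series table each gave Mcm4 -0.076, Mcm6 -0.14, Ccnd2 -0.054 and Birc5 -0.046, and removing a running median over A gave Mcm4 -0.073, Mcm6 -0.069 and Birc5 -0.039. The mean of all probes gave Nusap1 0.38. The S-phase minus mitotic median was 0.0083 with the processed signals and with the series table, 0.016 with the running median, and -0.012 to 0.059 with 1 array left out. The mitotic median ranged from -0.013 to 0.077 and the S-phase median from 0.015 to 0.086 with 1 array left out. The causes were not tested. No filter and the stricter filter left every member's value as reported. They keep the same brightest probe of each member, so they could not change a sign. The series table repeated the values of the processed signals named above, so the 13 alternatives are not independent. The pairing was used in every fit, since each array is itself the pair and its ratio is the unit of the test. A further replicate block would leave no residual. All members were well above background in both channels on all 4 arrays.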
